A study of Homo sapiens with 6 samples.

Results

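The genes described here were the membrane transporters that carry drugs, bile salts, lipids and organic ions, together with other genes whose symbols share their family names. These were the ATP-binding cassette (ABC) genes and the organic ion families SLC10A, SLC22A, SLC47A and SLCO. They were chosen by gene symbol and gene type alone, as protein-coding rows whose symbols belong to these families. The rule found 72 members among 35856 genes, of which 43 were ABC genes and 29 were SLC genes (5 of SLC10A, 13 of SLC22A, 2 of SLC47A and 9 of SLCO). Another 3 rows had matching symbols but were not listed as protein-coding, ABCC8, SLC22A25 and ABCC13, and were left out. ABCB11, the bile salt export pump, was not analysed here.

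ABC transporters use ATP to move a substrate across a membrane against its gradient, whereas the SLC carriers rely on exchange, cotransport or facilitated diffusion. In a hepatocyte, carriers on the sinusoidal side take up bile salts, organic anions and organic cations from blood, and ABC pumps on the canalicular side deliver conjugates, phospholipid, sterols and drugs into bile. The same pumps are known from tumour cells, where export of cytotoxic drugs through ABCB1, ABCC1 or ABCG2 lowers drug accumulation.

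The data were RNA-seq profiles of HCCLM3, an established human hepatocellular carcinoma cell line with high metastatic potential, and addressed what overexpression of the long non-coding RNA LINC00862 does to the transcriptome. The control group, Empty (labelled NC), had 3 libraries of cells given the empty vector, and the LINC00862 group had 3 libraries of cells labelled LINC00862 overexpression, made with a pcDNA3.1 vector that carries the transcript. The labels name HCCLM3 for all 6 libraries and no drug or other treatment, and poly(A) RNA was sequenced. It is not stated whether the libraries of a group came from separate cultures. The p-values set the group difference against the spread between these libraries, which may not be the spread between cultures. A difference between the vector-bearing cell populations and an effect of LINC00862 cannot be told apart.

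Total counts lay between 58241123 and 68229070 per library, and the 10 most abundant genes of each library took 8.42% to 11.7% of the counts in Empty but 19.4% to 29.2% in LINC00862. LINC00862 itself was measured at 0.0425, 0.0884 and 0.0214 FPKM (fragments scaled for transcript length and library depth) in the Empty libraries and at 0.530, 0.506 and 0.312 FPKM in the LINC00862 libraries, a log2 fold change of 3.22 (SE 0.53, edgeR adjusted p = 0.000583, and 3.83 without Empty replicate 2). Markers of several cell types differed between the groups. Of 9 hepatocyte markers, 8 were tested, 6 rose and 2 (SERPINA1 and ASGR1) fell, where 34.4% of all genes rose and 29.8% fell. ALB, APOB and TTR passed the filter on low counts through LINC00862, so a fall could not have been called for them. The summed level of the 9 markers was 4.73 to 5.17 FPKM in Empty against 809 to 924 FPKM in LINC00862. FGB and CPS1 made up most of the LINC00862 sum, with means of 550 and 305 FPKM. TTR was at 0 in every Empty library and had a mean of 0.464 FPKM in LINC00862. ALB (albumin) was close to absent in Empty, with a mean of 0.00780 FPKM, and had 1.51 FPKM in LINC00862. Of 4 cholangiocyte markers, 2 rose and 1 fell (summed 70.0 to 96.2 against 234 to 265 FPKM), EPCAM going from a mean of 0.547 to 160 FPKM. The other that rose, KRT19, passed the filter on low counts through LINC00862. Of 5 fibroblast markers, 1 rose and 2 fell (44.2 to 55.2 against 9.78 to 14.03 FPKM), THY1 among them (log2 fold change -8.50). Of 3 endothelial markers 1 rose (0.995 to 1.503 against 4.26 to 5.82 FPKM) and of 3 immune markers 2 rose (2.41 to 3.29 against 8.65 to 14.6 FPKM). Whether both groups are the line that the labels name was not tested, so each fold given here compares the libraries as labelled. The part of the markers in the transporter results was not tested, and in these bulk libraries fewer cells of a type and less RNA per cell cannot be told apart.

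Transporter transcripts differed widely between the groups, and more of the members rose than fell. Of the 72 members, 58 had enough reads to be tested and 42 of these passed an edgeR adjusted p of 0.05, which is 72.4% against 64.2% of the 20741 genes tested. Members that rose numbered 30 (51.7% of those tested, against 34.4% of all genes) and members that fell numbered 12 (20.7%, against 29.8%). With a fold of at least 2 required as well, 26 rose (44.8%, against 28.9%) and 8 fell (13.8%, against 20.9%). The FPKM values of the groups did not overlap for 45 tested members (77.6%, against 71.1%). Because a member can pass the filter on low counts through its higher group alone, these shares describe the members that could be tested and not the 72.

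The median log2 fold change was 0.67 over the tested members and 0.11 over all genes tested. Other scalings shifted both medians together: with upper quartile scaling they were 0.89 and 0.32, and with library size alone 0.51 and -0.05. The 37 tested ABC genes had 18 rises and 6 falls with a median of 0.62, and the 21 tested SLC genes had 12 rises and 6 falls with a median of 1.80. The remaining 14 members were too low to test, the highest of their group means being 0.0597 FPKM.

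The summed level of the 72 members was 196, 165 and 171 FPKM in the Empty libraries and 200, 215 and 170 FPKM in the LINC00862 libraries, so the groups overlapped. A mean of at least 1 FPKM was reached by 26 members in Empty and by 33 in LINC00862, 24 of them in both. In Empty the highest means were those of ABCF1 (29.2 ± 2.94 FPKM, SD, n = 3), ABCE1 (20.6 ± 5.13), SLC10A3 (18.5 ± 2.77), ABCF2 (16.2 ± 1.89) and ABCC1 (11.8 ± 2.66). In LINC00862 they were those of SLCO4A1 (24.3 ± 4.35 FPKM, SD, n = 3), ABCC2 (23.7 ± 1.07), ABCF1 (18.0 ± 4.45), ABCE1 (11.4 ± 0.934) and ABCF2 (9.74 ± 2.02). ABCC2 thereby moved from rank 34 to rank 2 of 72, and SLCO4A1 from rank 9 to rank 1. Among the members at 1 FPKM or more, LINC00862 replicate 3 held the lowest value of its group for 22 of 33 and replicate 2 the highest for 24 of 33.

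Most pumps of the bile canaliculus in the data were higher in LINC00862. Of 7 canalicular genes, 6 rose, none fell and 1 did not pass, where 34.4% of all genes rose and 29.8% fell. The median log2 fold change was 5.89, against 0.11 over all genes. ABCB1, ABCB4, ABCG5 and ABCG8 passed the filter on low counts through LINC00862, so a fall could not have been called for them. Of the 6 that rose, only ABCC2 and ABCB1 reached a mean of 1 FPKM in LINC00862 (23.7 and 1.34 FPKM). The summed level of the 7 genes was 0.665, 0.599 and 0.702 FPKM in the Empty libraries and 25.8, 27.6 and 26.3 FPKM in the LINC00862 libraries.

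ABCC2 (MRP2, chromosome 10), which exports glucuronide and glutathione conjugates such as bilirubin glucuronides into bile, made up most of that sum in LINC00862 but not in Empty. Its FPKM was 0.137, 0.179 and 0.160 in Empty and 22.6, 24.7 and 23.8 in LINC00862. Every LINC00862 library stood far above every Empty library and the spread within each group was small (0.158 ± 0.021 against 23.7 ± 1.07, SD, n = 3). The fitted difference was 167-fold (log2 fold change 7.38, SE 0.21, edgeR adjusted p = 3.26e-08) and rested on 71, 92 and 85 counts in Empty and on 13524, 12785 and 12521 counts in LINC00862. The promoter of ABCC2 is shown because it belongs to the member that gained the most FPKM, as the 250 bases before the RefSeq start site on GRCh38.p14, chr10:99782390-99782639, plus strand, with the only match found there, a TATAAA at position -236 from the start site, in capitals.
ABCC2: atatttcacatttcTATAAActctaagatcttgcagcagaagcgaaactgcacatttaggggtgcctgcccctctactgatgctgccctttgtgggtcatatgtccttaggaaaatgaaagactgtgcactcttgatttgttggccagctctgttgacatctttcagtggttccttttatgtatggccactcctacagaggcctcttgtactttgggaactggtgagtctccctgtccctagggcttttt

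ABCB1 (P-glycoprotein, the classical multidrug efflux pump) was measured at 0.0140, 0.0160 and 0.0405 FPKM in Empty and at 1.45, 1.35 and 1.22 FPKM in LINC00862. The groups were far apart, with a 59.2-fold difference (log2 fold change 5.89, SE 0.43, edgeR adjusted p = 3.84e-06). Leaving out Empty replicate 3, the highest of its group, raised the log2 fold change to 6.53. RUNDC3B, on the strand opposite ABCB1, went from a mean of 0.00426 to 0.298 FPKM. ABCG2 (BCRP), a half-transporter that exports drugs, urate and sulfate conjugates, read 0.186, 0.128 and 0.161 FPKM in Empty and 0.988, 0.913 and 0.618 FPKM in LINC00862. All LINC00862 libraries were above all Empty libraries, by 5.88-fold (log2 fold change 2.55, SE 0.29, edgeR adjusted p = 6.89e-05).

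ABCG5 and ABCG8, the subunits of the heterodimer that secretes cholesterol and plant sterols into bile, appeared together. Neither had a single count in any Empty library. In LINC00862, ABCG5 had 90, 71 and 51 counts (0.311, 0.285 and 0.200 FPKM) and ABCG8 had 150, 102 and 110 counts (0.191, 0.150 and 0.159 FPKM). Set against a floor of 3 counts over the Empty group, ABCG5 was at least 75.4-fold higher (edgeR adjusted p = 9.75e-05) and ABCG8 at least 129-fold higher (edgeR adjusted p = 3.25e-05). Per unit length, the ratio of ABCG5 to ABCG8 was 1.63, 1.903 and 1.26 in the LINC00862 libraries.

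These neighbours lie head to head on chromosome 2, ABCG5 at 43812472 to 43838865 on the minus strand and ABCG8 at 43831942 to 43873929 on the plus strand in the deposited hg38 coordinates, so their annotated bodies overlap. The libraries were stranded, but whether the counting used strand is not stated, so a part of the reads could be assigned to either gene. Their promoter windows (RefSeq, GRCh38.p14, 250 bases before each start site) share 131 bases and are shown because the pair rose together: ABCG5 at chr2:43838840-43839089, minus strand, and ABCG8 at chr2:43838721-43838970, plus strand. None of the 4 motifs searched matched in either window, so there are no capitals.
ABCG5: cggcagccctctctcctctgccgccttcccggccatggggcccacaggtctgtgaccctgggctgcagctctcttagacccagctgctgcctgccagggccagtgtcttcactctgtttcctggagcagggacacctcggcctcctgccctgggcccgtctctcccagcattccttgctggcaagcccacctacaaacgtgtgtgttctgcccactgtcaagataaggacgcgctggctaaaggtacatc
ABCG8: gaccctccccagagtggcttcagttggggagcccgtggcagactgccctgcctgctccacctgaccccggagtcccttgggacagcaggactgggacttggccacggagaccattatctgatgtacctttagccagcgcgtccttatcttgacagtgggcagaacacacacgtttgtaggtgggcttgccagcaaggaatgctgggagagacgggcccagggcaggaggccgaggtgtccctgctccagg

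The remaining canalicular genes stayed low. ABCB4 (MDR3), the phosphatidylcholine floppase, had 0, 8 and 0 counts in Empty and 29, 16 and 17 in LINC00862, a log2 fold change of 2.94 (SE 1.13, edgeR adjusted p = 0.0462). Its call was lost in 11 of 14 alternative fits, and without Empty replicate 2, which held every Empty count, the log2 fold change was 7.41 (edgeR adjusted p = 0.00355). ABCB1 and ABCB4 are neighbours on chromosome 7, 27.3 kb apart, yet ABCB1 exceeded ABCB4 in FPKM by 30.1, 44.6 and 41.5 times in the LINC00862 libraries. SLC47A1 (MATE1), a proton-coupled exporter of organic cations, had the opposite sign: 0.328, 0.262 and 0.341 FPKM in Empty against 0.238, 0.173 and 0.257 FPKM in LINC00862. The FPKM values of SLC47A1 did not overlap, but the fitted log2 fold change of -0.28 did not pass (SE 0.33, edgeR adjusted p = 0.475).

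The other plasma membrane efflux pumps of the ABCC family moved in both directions. Of 9 members, ABCB5 included, 7 were tested, 4 rose and 1 fell (median log2 fold change 0.62), against 34.4% and 29.8% of all genes. Their summed level was 30.5, 22.9 and 20.9 FPKM in Empty and 20.4, 21.4 and 18.8 FPKM in LINC00862, where the groups overlapped.

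ABCC1 (MRP1), the glutathione-linked efflux pump and leukotriene C4 exporter, was the fall. It read 14.8, 10.04 and 10.4 FPKM in Empty and 5.06, 5.44 and 4.58 FPKM in LINC00862, with no overlap and with Empty replicate 1 the highest. The fitted level was 2.06-fold lower (log2 fold change -1.04, SE 0.15, edgeR adjusted p = 0.000297). The balance of the related pumps ABCC2 and ABCC1 changed accordingly: the ratio of their FPKM was 0.00922, 0.0178 and 0.0153 in Empty and 4.46, 4.55 and 5.20 in LINC00862.

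ABCC3 (MRP3), which returns conjugates from the hepatocyte to blood, rose from 4.06, 3.88 and 3.10 FPKM to 4.97, 5.30 and 5.19 FPKM, a 1.59-fold difference (log2 fold change 0.67, SE 0.14, edgeR adjusted p = 0.00301). ABCC10 (MRP7), an exporter of taxanes among other drugs, rose from 1.80, 1.76 and 1.58 FPKM to 2.34, 2.46 and 2.20 FPKM, or 1.53-fold (log2 fold change 0.62, SE 0.14, edgeR adjusted p = 0.00448). Neither overlapped between the groups. ABCC4 (MRP4) and ABCC5 (MRP5), exporters of cyclic nucleotides, gave log2 fold changes of 0.08 and 0.09 with edgeR adjusted p of 0.730 and 0.656, and their sign depended on the scaling.

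ABCC6, whose loss causes pseudoxanthoma elasticum through reduced ATP release, read 0.0747, 0.114 and 0.166 FPKM in Empty and 0.661, 0.567 and 0.444 FPKM in LINC00862 (log2 fold change 2.37, SE 0.38, edgeR adjusted p = 0.000504). Its near-identical partial copies rose as well, ABCC6P2 from a mean of 0.0810 to 0.714 FPKM and ABCC6P1 from 0.00866 to 0.218 FPKM, so the division of reads among the 3 rows is uncertain. ABCC1 and ABCC6 lie 5.85 kb apart on chromosome 16 on opposite strands and carried opposite calls. ABCC11 (MRP8), which exports conjugated steroids and cyclic nucleotides, had 1, 0 and 0 counts in Empty and 93, 88 and 49 in LINC00862, a ratio of 245 (95% counting interval 43.6 to 9.74e+03, edgeR adjusted p = 4.53e-05). Empty replicate 1 held the only Empty count of ABCC11, and without it the fitted log2 fold change moved from 7.46 to 9.26. ABCC11 passed the filter on low counts through LINC00862, so a fall could not have been called for it. ABCB5, a marker of some tumour-initiating cells, had 0 counts in Empty and 29 over the LINC00862 group and was not tested, like ABCC12 with 4 against 3 counts.

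The sinusoidal uptake carriers stayed near the detection limit in both groups. Of 5 members, 2 were tested and neither passed, and the summed level was 0.0504, 0.126 and 0.168 FPKM in Empty and 0.192, 0.213 and 0.116 FPKM in LINC00862, with overlap. SLC10A1 (NTCP), the sodium-dependent bile salt carrier, had 3, 3 and 0 counts against 9, 0 and 3. SLCO1B1 (OATP1B1), the uptake carrier for statins and bilirubin, had 0 counts in every Empty library and 4, 24 and 7 in LINC00862, at least 12.5-fold higher on the group floor. SLCO1B3 (OATP1B3), its close relative, had counts in 1 library of each group, 4 in Empty replicate 3 and 12 in LINC00862 replicate 3. None of these 3 was tested.

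SLCO2B1 (OATP2B1), an uptake carrier for sulfated steroids, had 25, 15 and 36 counts in Empty and 24, 10 and 13 in LINC00862 (log2 fold change -0.62, SE 0.57, edgeR adjusted p = 0.368).

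**Figure D1:**
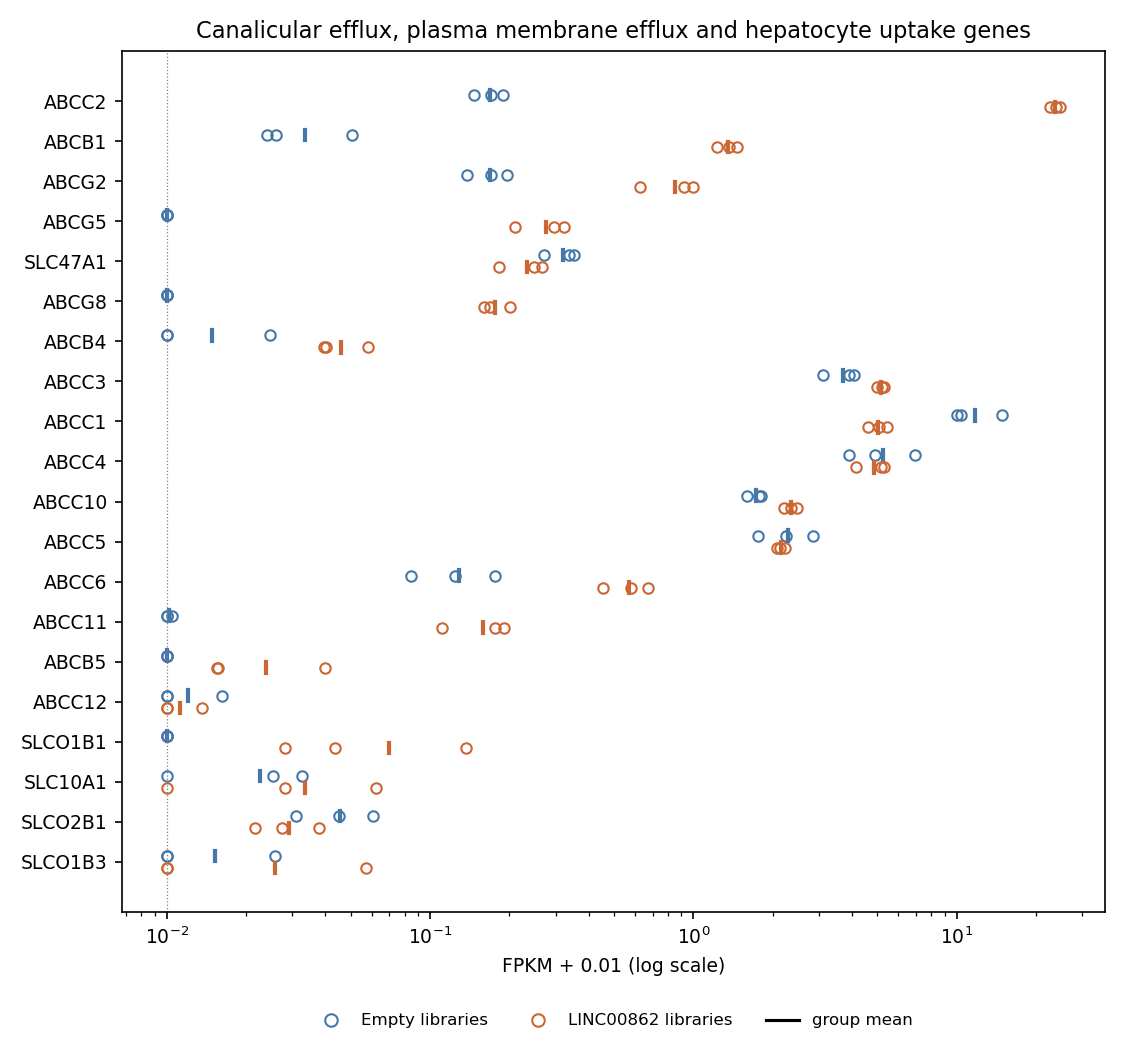
FPKM + 0.01 on a log scale (x axis) for canalicular, ABCC efflux and hepatocyte uptake genes (y axis), with 1 circle per library and a tick at each group mean. The LINC00862 libraries lie far to the right of the Empty libraries for ABCC2 and ABCB1 and to the left for ABCC1, whereas the circles of the uptake genes are mixed, apart from SLCO1B1, and all lie below an FPKM of 0.2.

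Among 6 carriers of organic cations and anions best known from kidney, 2 were tested and both rose, where 34.4% of all genes did. Both passed the filter on low counts through LINC00862, so a fall could not have been called for them. Their large folds rest on very low Empty means, 0.00608 FPKM for SLC22A3 and 0.00718 FPKM for SLC47A2. SLC22A3 (OCT3), the extraneuronal monoamine carrier, had 0, 0 and 0.0182 FPKM in Empty and 1.16, 1.21 and 1.26 FPKM in LINC00862 (log2 fold change 7.64, SE 0.76, edgeR adjusted p = 2.72e-05). Its Empty level came from 4 counts in Empty replicate 3, and the log2 fold change was 11.2 without that library and 7.06 without Empty replicate 1. SLC22A2 (OCT2), its neighbour on chromosome 6, had 0 counts in Empty and 29 in LINC00862 and was not tested. SLC47A2 (MATE2), a cation exporter, rose from a mean of 0.00718 to 0.0784 FPKM (log2 fold change 3.42, edgeR adjusted p = 0.00827), while ALDH3A2 on the opposite strand went from 2.94 to 8.58 FPKM.

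The carnitine and zwitterion carriers split. SLC22A4 (OCTN1), the ergothioneine carrier, read 4.08, 4.09 and 3.68 FPKM in Empty and 1.04, 1.01 and 0.785 FPKM in LINC00862, 3.70-fold lower (log2 fold change -1.89, SE 0.21, edgeR adjusted p = 5.37e-05). SLC22A5 (OCTN2), the high-affinity carnitine carrier, fell from 3.24, 2.77 and 2.18 FPKM to 1.19, 1.19 and 0.997 FPKM, 2.14-fold (log2 fold change -1.10, SE 0.16, edgeR adjusted p = 0.000263). Neither overlapped between the groups. SLC22A4 fell further than SLC22A5, the ratio of their FPKM being 1.26, 1.48 and 1.68 in Empty and 0.877, 0.847 and 0.788 in LINC00862. P4HA2, on the strand opposite SLC22A4, also went down, from a mean of 19.5 to 6.55 FPKM.

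SLC22A4 and SLC22A5 are adjacent on chromosome 5, 25.5 kb apart and on the same strand, and were the only members within 200 kb of each other that both fell. Their promoter windows (RefSeq, GRCh38.p14, plus strand, 250 bases before the start site) lie at chr5:132294144-132294393 and chr5:132369460-132369709. They are shown for the matches to GGGCGG, or its complement on the other strand, that both contain, marked in capitals. SLC22A4 holds 6, at positions -243, -156, -109, -105, -85 and -47, those at -109 and -105 overlapping, and SLC22A5 holds 4, at -208, -61, -33 and -13.
SLC22A4: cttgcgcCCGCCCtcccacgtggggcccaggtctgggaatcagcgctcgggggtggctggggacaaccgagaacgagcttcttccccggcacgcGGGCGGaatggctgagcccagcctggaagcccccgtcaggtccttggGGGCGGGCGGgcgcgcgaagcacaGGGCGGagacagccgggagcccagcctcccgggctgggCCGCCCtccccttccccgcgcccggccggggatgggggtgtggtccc
SLC22A5: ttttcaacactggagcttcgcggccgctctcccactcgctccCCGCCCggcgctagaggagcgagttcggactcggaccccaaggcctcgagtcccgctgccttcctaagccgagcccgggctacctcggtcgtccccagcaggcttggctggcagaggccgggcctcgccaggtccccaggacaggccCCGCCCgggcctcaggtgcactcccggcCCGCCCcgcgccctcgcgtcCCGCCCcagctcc

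Each window was searched on both strands for AGGTCA (a nuclear receptor half-site), GGGCGG (GC box), CCAAT and TATAAA. Of all 35116 RefSeq windows of the same length, 12.1%, 42.6%, 32.0% and 10.7% held them, and of the 76 windows of 53 members 7.89%, 47.4%, 27.6% and 11.8%. These shares describe letter matches and do not show binding.

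SLC22A15, a carrier of zwitterions such as ergothioneine, went the other way. It read 0.293, 0.0886 and 0.112 FPKM in Empty and 3.71, 4.14 and 3.69 FPKM in LINC00862, 26.6-fold higher (log2 fold change 4.73, SE 0.39, edgeR adjusted p = 9.08e-06). Without Empty replicate 1, the highest of its group, the log2 fold change was 5.36.

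All 4 SLC22 members with less settled substrates rose, where 34.4% of all genes did. Their summed mean went from 2.32 to 14.4 FPKM. SLC22A31, a poorly characterised member, had 0, 0.0201 and 0.0643 FPKM in Empty and 5.51, 6.12 and 5.15 FPKM in LINC00862, a 189-fold difference (log2 fold change 7.56, SE 0.66, edgeR adjusted p = 1.17e-05). Leaving out Empty replicate 3 gave 9.04 and leaving out Empty replicate 1 gave 6.95. SLC22A31 passed the filter on low counts through LINC00862, so a fall could not have been called for it. SLC22A23 rose from a mean of 0.342 to 2.59 FPKM (log2 fold change 3.10, edgeR adjusted p = 2.83e-06), with PSMG4 on its opposite strand at 1.54 and 2.59 FPKM, and SLC22A18, which lies in the imprinted 11p15 region, rose from 1.75 to 5.50 FPKM (log2 fold change 1.80, edgeR adjusted p = 0.000196). SLC22A17, a receptor for the iron-binding protein lipocalin 2, rose from 0.206 to 0.688 FPKM (log2 fold change 1.91, edgeR adjusted p = 0.000448).

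In the SLCO family outside the liver uptake carriers, 5 of 6 members were tested. Of these, 3 rose and 2 fell, against 34.4% and 29.8% of all genes. SLCO4C1 and SLCO5A1 passed the filter on low counts through LINC00862 alone, and SLCO2A1 and SLCO3A1 through Empty alone. For those genes only the direction seen could have been called. SLCO4A1 (OATP4A1), a carrier of thyroid hormones and other organic anions, read 5.58, 5.21 and 5.05 FPKM in Empty and 25.7, 27.7 and 19.4 FPKM in LINC00862. It was the highest member of the LINC00862 group, 5.15-fold higher than in Empty (log2 fold change 2.36, SE 0.15, edgeR adjusted p = 1.71e-06). SLCO4A1-AS1, on the opposite strand of the same locus, went from a mean of 0.212 to 17.7 FPKM, so reads of the pair could be shared.

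SLCO3A1 (OATP3A1), a carrier of prostaglandins and bile acids, nearly disappeared. It read 1.92, 1.55 and 1.83 FPKM in Empty (1200, 957 and 1153 counts) and 0.0162, 0.0203 and 0.00435 FPKM in LINC00862 (13, 13 and 3 counts). That was 107-fold lower (log2 fold change -6.74, SE 0.39, edgeR adjusted p = 1.08e-06). SLCO2A1, the prostaglandin carrier, had 75 counts over the Empty group and none in LINC00862, at least 23.4-fold lower (edgeR adjusted p = 0.000961).

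The other SLCO genes that rose did so from very low levels. SLCO5A1, an orphan member, went from a mean of 0.00783 to 0.417 FPKM (log2 fold change 5.83, SE 0.40, edgeR adjusted p = 2.82e-06). SLCO4C1, known from the basolateral membrane of the proximal tubule, went from 0.0230 to 0.985 FPKM (log2 fold change 5.55, SE 0.73, edgeR adjusted p = 0.000162), and to 6.46 without Empty replicate 1. SLCO1C1, a thyroxine carrier, had 37 counts in LINC00862 and none in Empty and was not tested.

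Among the 4 SLC10 genes other than SLC10A1, 2 rose and 2 fell, against 34.4% and 29.8% of all genes. Of those that fell, SLC10A4 passed the filter on low counts through Empty, so a rise could not have been called for it. The summed mean of the 4 genes went from 19.4 to 6.54 FPKM. SLC10A3, an orphan relative of the bile salt carriers, accounted for most of that sum, with 18.0, 16.0 and 21.5 FPKM in Empty and 4.06, 4.58 and 4.36 FPKM in LINC00862, 3.78-fold lower (log2 fold change -1.92, SE 0.17, edgeR adjusted p = 1.53e-05). The groups did not approach each other. SLC10A4, a vesicular protein of neurons and mast cells, had 14, 48 and 19 counts in Empty and none in LINC00862, at least 25.3-fold lower (edgeR adjusted p = 0.00181), and at least 15.1-fold lower without Empty replicate 2 (edgeR adjusted p = 0.00773). SLC10A5 rose from a mean of 0.204 to 0.937 FPKM (log2 fold change 2.35, edgeR adjusted p = 0.000559) and SLC10A7, which takes part in calcium handling and bone mineralisation, from 0.510 to 1.27 FPKM (log2 fold change 1.49, edgeR adjusted p = 0.00140).

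The ABCA genes, full-size transporters that move phospholipids, sterols and retinoids, rose or did not pass. Of 12 members, 9 were tested, 7 rose and none fell (median log2 fold change 1.41), where 34.4% of all genes rose and 29.8% fell. Among the rises, a gene with few Empty counts passed the filter on low counts through LINC00862, so a fall could not have been called for it. The summed mean of the 12 members went from 9.57 to 20.3 FPKM. ABCA12, the keratinocyte lipid transporter mutated in harlequin ichthyosis, read 0.0593, 0.0301 and 0.0182 FPKM in Empty and 3.92, 4.26 and 3.31 FPKM in LINC00862, 120-fold higher (log2 fold change 6.90, SE 0.33, edgeR adjusted p = 3.56e-07). ABCA3, the surfactant phospholipid transporter of lamellar bodies, rose from 3.75, 3.03 and 3.60 FPKM to 8.33, 9.96 and 6.36 FPKM, or 2.66-fold (log2 fold change 1.41, SE 0.17, edgeR adjusted p = 7.71e-05). It was the most abundant ABCA gene in both groups.

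ABCA1, which loads cholesterol onto apolipoprotein A-I, rose from a mean of 0.105 to 0.335 FPKM (log2 fold change 1.87, edgeR adjusted p = 0.000852). ABCA2 and ABCA7, linked to lipid handling in brain, rose by 0.86 and 0.68 on the log2 scale. ABCA10 was the only called gene of the chromosome 17 cluster of ABCA8, ABCA9, ABCA6, ABCA10 and ABCA5. It had 3.44 on the log2 scale (edgeR adjusted p = 5.49e-05), whereas ABCA5 and ABCA8 read -0.05 and 0.22 without passing. ABCA9 and ABCA6 were too low to test.

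ABCG1 and ABCG4, half-transporters that move cholesterol to lipoprotein particles, went in opposite directions. ABCG1 read 0.0182, 0.00978 and 0.0281 FPKM in Empty and 1.94, 2.20 and 1.59 FPKM in LINC00862, 107-fold higher (log2 fold change 6.75, SE 0.37, edgeR adjusted p = 7.85e-07). ABCG4 had 89, 58 and 40 counts in Empty and 0, 13 and 0 in LINC00862 (log2 fold change -3.69, SE 1.12, edgeR adjusted p = 0.0167). The ABCG4 call rested on single libraries: the adjusted p was 0.0508 without LINC00862 replicate 3, and the log2 fold change was -8.91 without LINC00862 replicate 2, the only library of its group with counts, and -3.09 without replicate 1.

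Tested members that serve organelles or have no transport function changed by less than 2-fold, though some were called, and held much of the summed level. None of the 5 ABCB genes of mitochondria and lysosomes passed, although ABCB8, a mitochondrial transporter, was called with upper quartile scaling (log2 fold change 0.43, edgeR adjusted p = 0.0263). The log2 fold changes ran from -0.03 to 0.22, and the summed mean was 15.8 FPKM in Empty and 15.0 FPKM in LINC00862. ABCB10, a mitochondrial transporter of erythroid haem synthesis and the most abundant of them, had means of 6.16 and 5.86 FPKM (edgeR adjusted p = 0.586). Of the peroxisomal ABCD genes, ABCD3, a carrier of branched-chain acyl-CoA and bile acid precursors, gave a log2 fold change of -0.18 (edgeR adjusted p = 0.393). ABCC9, a regulatory subunit of ATP-sensitive potassium channels, stayed at means of 0.00301 and 0.00145 FPKM and was not tested.

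ABCE1 and the ABCF genes have ABC ATPase domains but no membrane-spanning part, ABCE1 splitting ribosomes after translation and ABCF1 taking part in translation initiation. Their summed level was 82.6, 69.2 and 74.3 FPKM in Empty and 49.5, 51.3 and 36.6 FPKM in LINC00862, without overlap. Of the 4 genes, 3 fell, where 29.8% of all genes did. ABCE1 went from 26.2, 19.6 and 16.0 FPKM to 10.7, 12.5 and 11.03 FPKM (log2 fold change -0.67, SE 0.17, edgeR adjusted p = 0.00627). ABCF1 went from 30.1, 25.9 and 31.6 FPKM to 20.9, 20.4 and 12.9 FPKM (log2 fold change -0.53, SE 0.18, edgeR adjusted p = 0.0271), and ABCF2 had a log2 fold change of -0.56 (SE 0.16, edgeR adjusted p = 0.0117). The calls of ABCF1 and ABCF2 were lost with upper quartile scaling, and that of ABCF1 also without Empty replicate 3, LINC00862 replicate 2 or LINC00862 replicate 3 (edgeR adjusted p = 0.0766, 0.0532 and 0.0808).

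**Figure D2:**
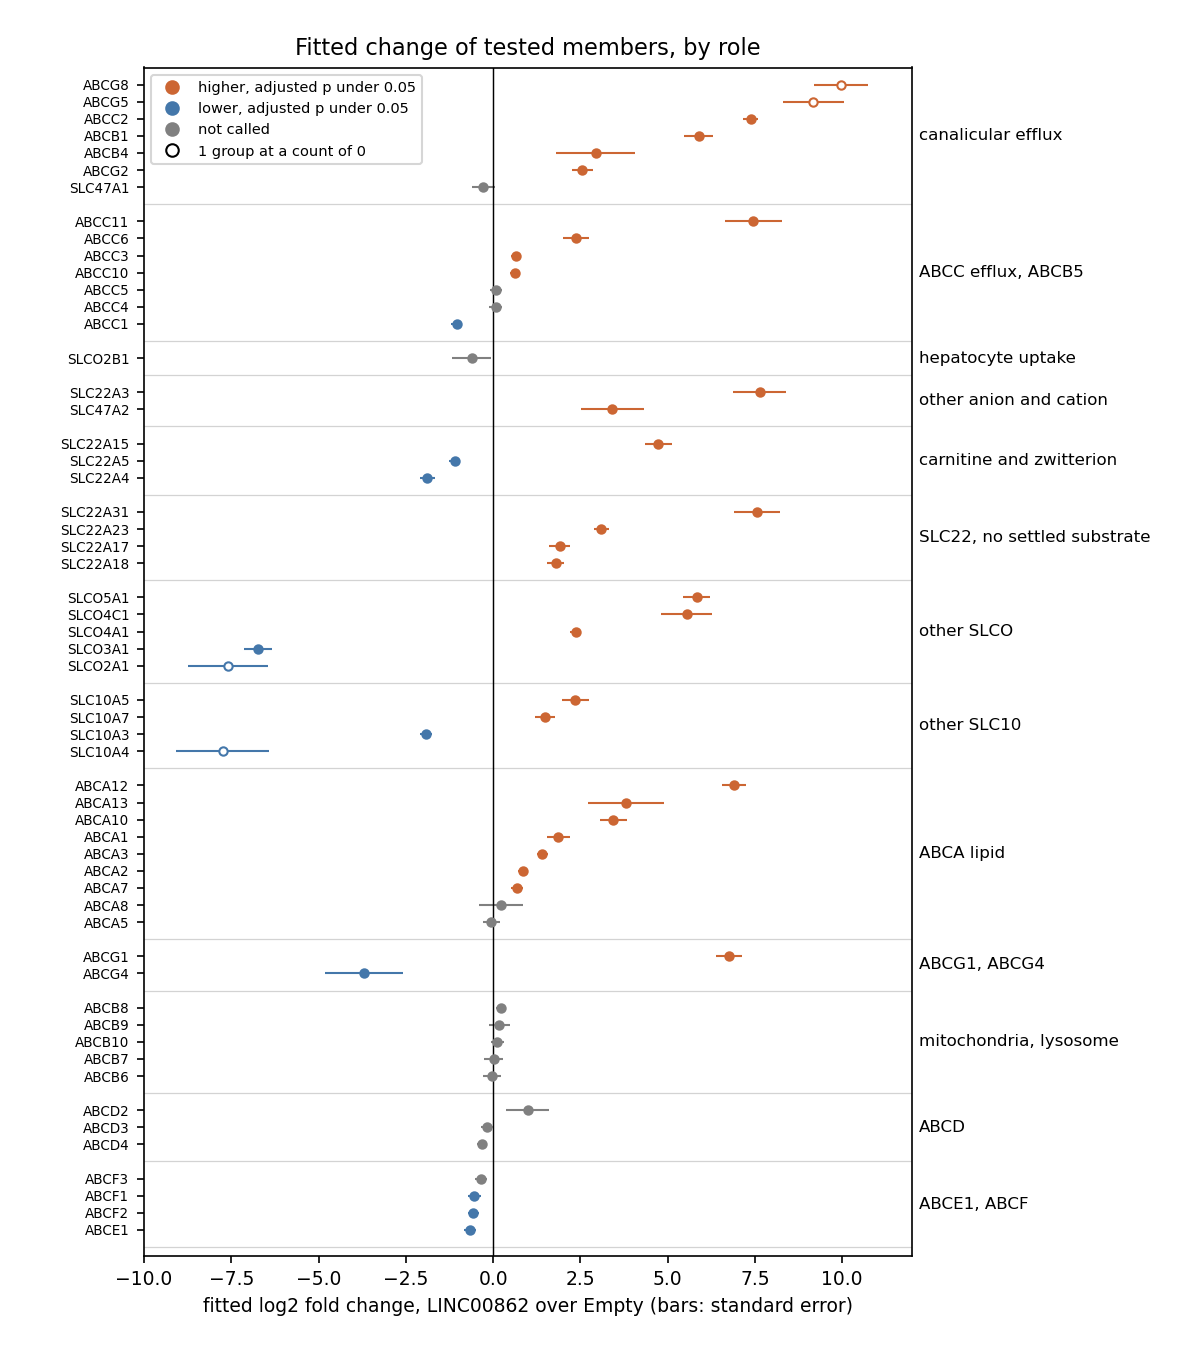
Fitted log2 fold change of LINC00862 over Empty (x axis, bars: standard error, 3 libraries per group) for 56 tested members, grouped by role (y axis). Open circles are genes with a count of 0 in every library of 1 group, whose fitted value is not a measured size. Canalicular, SLC22 and ABCA genes lie mainly to the right of 0, the mitochondrial and lysosomal ABCB genes sit at 0, and ABCE1 and the ABCF genes lie slightly to the left.

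**Figure D3:**
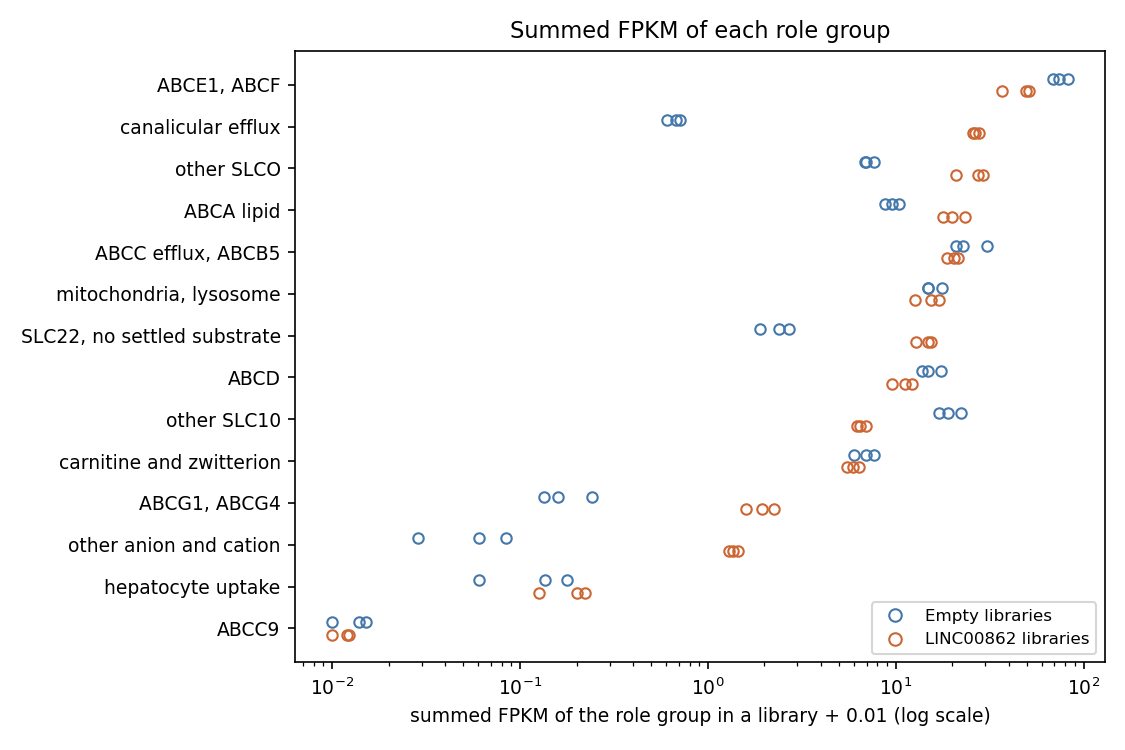
Summed FPKM + 0.01 of each role group (x axis, log scale) in the 3 Empty and 3 LINC00862 libraries, 1 circle per library. The canalicular genes are apart by the widest gap among the groups above 10 FPKM (means 0.655 and 26.6), while the ABCC efflux and the mitochondrial and lysosomal genes overlap between the groups.

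Genes known to regulate or place these transporters were measured in the same libraries. Of 15 regulators in the data 13 were tested, 10 rose and 1 fell (median log2 fold change 0.92), where 34.4% of all genes rose and 29.8% fell. Tested against a fold change of 2, 5 regulators rose. NR5A2 and others of those that rose passed the filter on low counts through LINC00862, so a fall could not have been called for them. NR5A2 (LRH-1), a nuclear receptor of bile acid and cholesterol genes, had 0 counts in every Empty library and a mean of 0.323 FPKM in LINC00862, at least 180-fold higher (edgeR adjusted p = 3.12e-05). NFE2L2 (NRF2), which drives ABCC genes under oxidative stress, rose from a mean of 12.9 to 19.3 FPKM (log2 fold change 0.75, edgeR adjusted p = 0.00115). RXRA, the shared partner of the bile acid, oxysterol and xenobiotic receptors, was the gene that fell, from 2.91 to 1.00 FPKM (log2 fold change -1.37, edgeR adjusted p = 0.000137). NR1H4 (FXR), the bile acid receptor, was too low to test in both groups.

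Of 10 genes that anchor or deliver apical transporters, 7 fell and 1 rose (median log2 fold change -0.87), against 29.8% and 34.4% of all genes. Tested against a fold change of 2, 3 of them fell. EZR (ezrin) and MSN (moesin), which link membrane proteins to actin, went from means of 137 to 13.7 FPKM and from 67.7 to 2.43 FPKM (log2 fold changes -3.15 and -4.62, edgeR adjusted p = 2.11e-07 and 4.18e-07). RDX (radixin), the member of that family known to hold ABCC2 at the canalicular membrane, fell from 9.58 to 4.29 FPKM (log2 fold change -0.96, edgeR adjusted p = 0.00295). MYO5B, the motor of apical recycling endosomes, rose from 0.379 to 5.06 FPKM (log2 fold change 3.92, edgeR adjusted p = 3.06e-07).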

How the data were processed

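Poly(A) RNA of the 6 libraries was sequenced with molecular identifiers. The deposited table holds, per gene and library, a count and an FPKM that the authors computed from their alignments on hg38. The submitters' processing notes name cutadapt 1.9, HISAT2 2.0.4, UMI-tools, StringTie 1.3.4d, DESeq2 and edgeR without roles. Whether the counting used strand is not given in the sources used here.

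Counts were filtered and scaled (TMM), and 20741 genes were tested with the quasi-likelihood test of edgeR 4.0.16 in R 4.3.3, both groups in 1 fit without covariates, Benjamini-Hochberg adjusted over all genes tested and called at 0.05. The script was tested on simulated counts. Alternatives used DESeq2 1.42.0, limma 3.58.1 on log2(FPKM + 1) and log2(FPKM + 0.1), other scalings, no filter, a replicate block, a fold change of 2, a false discovery rate of 0.01 and each library left out. With limma a fold change is on the log2(FPKM + pseudocount) scale. Summaries used Python 3.11.15, pandas 2.3.3, SciPy 1.17.1 and matplotlib 3.10.9. FPKM divides by library total, so it and TMM-scaled folds differ slightly. A gene with no count in a group is given a bound against 3 counts over that group, with counting intervals covering counting error only.

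Named were the canalicular, ABCC efflux and uptake genes, the 6 largest rises and falls among other members with a mean of at least 0.5 FPKM and no overlap, the 5 highest means per group, and examples of each role and context list. Untested members, ABCA1, ABCA2, ABCA7, ABCA10, ABCA5, ABCA8, SLC22A17, SLC22A18, SLC22A23, SLC47A2 and SLC10A7, overlapping genes and individual markers were named after their values were seen. So were context genes other than the largest rise, the largest fall and the highest LINC00862 mean of their list. Members and lists were chosen with earlier results of these data known. Individual results of a few genes are not reported here, though the counts include them. No pair of libraries agreed within sampling noise. Promoter sequences are from RefSeq (GRCh38.p14), which had windows for 53 of 72 members.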

Additional observations from a re-analysis of the deposited data

How the results depend on the processing

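The 12 members that fell became 6 when the test was against a fold change of 2, where 31 members were called (25 rose). Every other total over the members stayed within 1.5 times: called members numbered 41 with DESeq2, 41 with upper quartile scaling, 43 with library size alone, 45 with every gene of at least 1 count kept, 42 and 43 with limma on log2(FPKM + 1) and log2(FPKM + 0.1), and 37 at a false discovery rate of 0.01. Counts within the role and context lists were less stable: 36 moved by over 1.5 times and 999 did not. Against a fold change of 2, ABCC efflux calls went from 5 to 2 (2 rises), ABCE1 and ABCF falls from 3 to 0, carnitine falls from 2 to 1, regulator rises from 10 to 5 and trafficking falls from 7 to 3. ABCE1 and ABCF falls were 1 with upper quartile scaling and 1 at a false discovery rate of 0.01. Mitochondrial and lysosomal calls went from 0 to 1 with upper quartile scaling. Regulator falls went from 1 to 2 with library size alone, with limma and without Empty replicate 1. With each library left out in turn the called members ran from 39 to 44, those that rose from 29 to 31 and those that fell from 10 to 14. Without the filter, SLCO1B1, SLCO1C1, SLC22A2 and ABCB5 were also called as rises, and ABCB4 was not. Equal replicate numbers did not mark paired libraries (correlations of deviations -0.049, -0.025 and -0.0074), and a replicate block gave 40 calls (29 rises, 11 falls), with ABCB4 (log2 3.85, edgeR adjusted p = 0.0670) and ABCF1 (-0.55, 0.0642) not called. Of 37 named members tested with 14 alternatives, 24 held direction and call in all, and of their values 480 held, 25 lost the call and 13 changed sign. The sign changes were all in uncalled genes. ABCB10 read -0.059 with library size alone, -0.036 and -0.038 with limma (pseudocounts 1 and 0.1) and ran from -0.0089 without Empty replicate 3 to 0.30 without Empty replicate 1. ABCC4 read -0.095, -0.066 and -0.073 in the same 3 fits and -0.062 to 0.27 with a library left out, and ABCC5 read -0.084, -0.053 and -0.067, and -0.035 to 0.23. ABCD3 read 0.032 with upper quartile scaling. The cause was not tested. Low counts limit the uptake carriers, and strand use limits genes with an opposite-strand partner.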

Other observations

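Relatives and partners of the transporters outside the families also differed. TAP1 and TAP2, the ABC heterodimer that loads peptides into the endoplasmic reticulum for antigen presentation, rose from means of 16.5 to 39.4 FPKM and from 9.68 to 19.7 FPKM (log2 fold changes 1.41 and 1.20, edgeR adjusted p = 8.56e-05 and 6.84e-05). CFTR, the ABC chloride channel of secretory epithelia, rose from 0.00424 to 0.135 FPKM (log2 fold change 5.00, edgeR adjusted p = 0.000416, with 4.40 and 5.58 without Empty replicates 1 and 3).

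Of 12 genes of bile acid synthesis, conjugation and flux, 10 were tested (median log2 fold change 0.42). Of these, 4 rose and 4 fell, against 34.4% and 29.8% of all genes. All 4 that rose had Empty means of at most 0.0163 FPKM. They passed the filter on low counts through LINC00862, so a fall could not have been called for them. Of those that fell, CYP27A1 and KLB passed it through Empty, so a rise could not have been called for these. CYP7B1, an oxysterol hydroxylase, BAAT, which conjugates bile acids, SLC51B, a subunit of the basolateral bile acid exporter, and FGF19, the hormone that represses bile acid synthesis, rose. CYP27A1, the sterol 27-hydroxylase, fell by 3.95 on the log2 scale, and FGFR4 and KLB, receptor and coreceptor of FGF19, fell by 2.19 and 2.24 (edgeR adjusted p = 1.87e-05, 0.000299 and 0.0102). ATP8B1, the aminophospholipid flippase of the canalicular membrane, fell from 22.3 to 5.23 FPKM (log2 fold change -1.89, edgeR adjusted p = 5.71e-05). CYP7A1, the rate-limiting enzyme of bile acid synthesis, and CYP8B1 were too low to test in both groups.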
